A study of Mus musculus with 4 samples.

Results

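The tumour necrosis factor (TNF) superfamily was examined in the epididymal fat, a visceral depot, of obese mice with different dietary histories. The members were chosen by symbol from the 24421 genes of the matrices: Tnf, Lta, Ltb, Ltbr, Cd40, Cd40lg, Fas, Fasl, Cd27, Cd70 and all symbols that begin with Tnfsf, Tnfrsf or Traf followed by a digit. This rule found 51 genes, namely 17 ligands, 24 receptors, 7 TNF receptor-associated factors (TRAFs) and 3 TRAF3-interacting proteins, which the symbol rule also takes in although they belong to neither family. Of the receptors, 5 are death domain receptors, 15 bind TRAFs, and 4 are decoys or other receptors. Family members under other symbols (Eda, Eda2r, Edar, Ngfr and Relt) are no members by this rule, and their values are given with the pathway genes.

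Ligands of the TNF superfamily are mostly trimeric membrane proteins, and some are cut from the cell surface and act as soluble cytokines. Receptors with a death domain can recruit adaptors that start apoptosis, whereas the other signalling receptors bind TRAFs, adaptors and ubiquitin ligases that lead to NF-kB and MAP kinase activation. Decoy receptors bind ligand without passing on a signal. In obese adipose tissue, TNF is known as a product of macrophages that impairs insulin signalling and stimulates lipolysis in adipocytes.

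The Ctrl mice were fed a high-fat diet (HFD) for 14 weeks without a break from the age of 10 weeks. The WC1 mice, the weight-cycling group, started HFD at 8 weeks of age, took it for 8 weeks, lost weight on a standard diet for 2 weeks, and returned to HFD for 6 weeks. All were male wild-type C57BL/6J mice. Both groups had thus eaten HFD for 14 weeks and reached 24 weeks of age. There were 2 libraries of poly(A) RNA per group, and the labels do not say whether a library came from 1 animal or a pool, so p-values measure the spread between these libraries. No group on standard diet alone is among the samples, so every comparison is between obese groups.

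The libraries held between 61465029 and 90965297 reads. Levels are given as the deposited read-proportional values, written as CPM. At these depths 3 reads, the most that a count of 0 allows, corresponded to between 0.0345 and 0.0492 CPM, for counting error only. The tissue label was checked with markers. All 8 adipocyte markers were tested, and their summed level was 4898 and 6000 CPM in Ctrl, against 9723 and 12981 CPM in WC1. The epididymis markers Crisp1 and Lcn5 were at 0 in all 4 libraries. Adam7 had 0 reads in both Ctrl libraries, against 184 (3.02 CPM) in WC1 1 and 2 in WC1 2. Defb20 had 7 reads in WC1 1 and 0 elsewhere. Rnase10 had 24 and 26 reads in Ctrl, against 14 and 6 in WC1. Markers of several other cell types differed between the groups. Macrophage markers summed to 13039 and 11928 CPM in Ctrl, against 7777 and 5468 CPM in WC1, 1.88-fold lower in WC1, with 5 of 12 called lower. Mast cell markers were 7.85-fold lower in WC1, with 5 of 6 called lower. Endothelial markers were 2.33-fold higher in WC1, with 5 of 6 called higher. In bulk tissue, fewer cells of a type and less RNA per cell cannot be told apart. Whether these markers contribute to the differences below was not tested.

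Of the 51 members, 37 reached the test, since 2 or more of the 4 libraries held at least 0.5 CPM, and 14 did not. By limma with Benjamini-Hochberg adjustment over 14106 genes, 3 members rose and 3 fell in WC1 at an adjusted p under 0.05, and 13 had an unadjusted p under 0.05. Over all genes, 5329 of 14106 had an unadjusted p under 0.05. The members that rose were the ligand Tnfsf10 (TRAIL), the death receptor Fas and the decoy receptor Tnfrsf11b (osteoprotegerin). The members that fell were the TNF receptor Tnfrsf1b (TNFR2), the mouse receptor Tnfrsf26 and the adaptor Traf3ip2 (Act1). The 6 called members are 16.2% of those tested, compared to 17.9% of all genes tested, with 10.2% of all genes called higher and 7.71% called lower. The family was thus called about as often as genes in general. The libraries of both groups did not overlap in 24 of the 37 members, 9 higher and 15 lower in WC1. Over all genes this held for 69.3%, with 32.7% higher and 36.6% lower. The median log2 fold change of the tested members was -0.05, and that of all genes was -0.02. With 1 library left out, the median of the members lay between -0.12 (without WC1 2) and 0.0065 (without WC1 1), so its sign depended on 1 library.

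**Figure D1:**
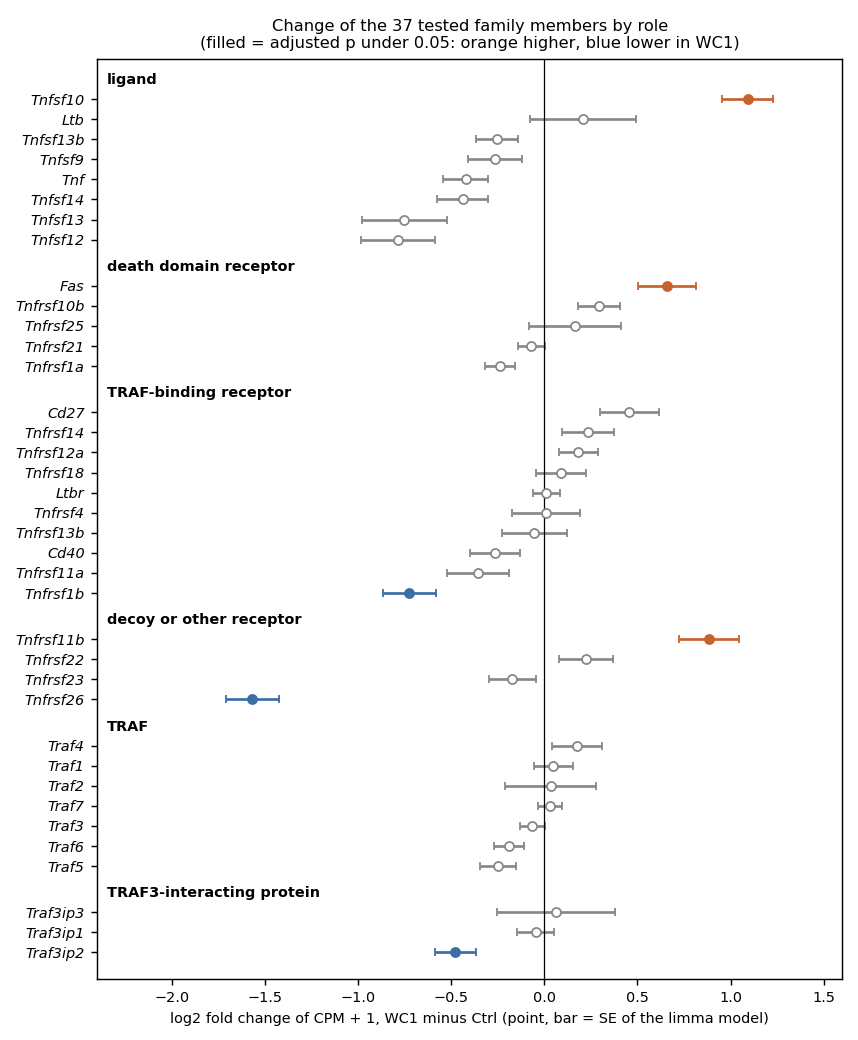
Log2 fold change of CPM + 1 (WC1 minus Ctrl) of the 37 tested members, grouped by role, with bars of 1 standard error of the limma model. Filled points are the 6 called members, and the ligands other than Tnfsf10 and Ltb all lie below 0, whereas the 7 TRAFs lie between -0.25 and 0.18.

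Leaving out a library in turn leaves 1 library in that group, which is then assumed to vary like the other group, whose 2 libraries alone give the spread. The libraries differed by a median of 0.088 (log2) in Ctrl and 0.136 in WC1. Without Ctrl 1 or without Ctrl 2, limma called 0 members in either direction, with 7 members at an unadjusted p under 0.05 each time. Over all genes it then called 2 higher and 4 lower without Ctrl 1, and 6 higher and 6 lower without Ctrl 2, so these losses say little about the members. Without WC1 1, limma called 7 members higher and 7 lower, as all-gene calls rose to 2424 and 2748, and without WC1 2 it called 3 and 3. All 6 called members kept their direction in each of these fits.

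The promoters of the called members are shown where RefSeq gave one, since these members passed the test. An entry was found for 40 of the 51 members, Tnfsf10, Fas and Tnfrsf1b among the 6 called. The sequences are the 250 bases before the RefSeq start, from the 5′ to the 3′ end of the gene's strand (build GRCm38.p6). Capitals mark the core of an interferon-stimulated response element (ISRE), TTTCNNTTTC on either strand. The RefSeq start of Tnfsf10 lies downstream of the GENCODE M21 start given below, so its stretch ends inside the gene as annotated there.
Tnfsf10, chr3:27316827-27317076, plus strand: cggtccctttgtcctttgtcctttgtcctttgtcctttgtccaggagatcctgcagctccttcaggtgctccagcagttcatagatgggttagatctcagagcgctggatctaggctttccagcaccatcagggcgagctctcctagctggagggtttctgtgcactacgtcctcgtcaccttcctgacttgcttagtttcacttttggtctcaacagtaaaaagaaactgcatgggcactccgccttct
Fas, chr19:34290409-34290658, plus strand: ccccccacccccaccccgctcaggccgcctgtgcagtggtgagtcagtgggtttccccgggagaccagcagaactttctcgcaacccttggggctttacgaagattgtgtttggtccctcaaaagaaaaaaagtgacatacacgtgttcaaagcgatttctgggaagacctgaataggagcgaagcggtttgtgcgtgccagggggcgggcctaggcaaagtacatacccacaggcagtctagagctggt
Tnfrsf1b, chr4:145246871-145247120, minus strand: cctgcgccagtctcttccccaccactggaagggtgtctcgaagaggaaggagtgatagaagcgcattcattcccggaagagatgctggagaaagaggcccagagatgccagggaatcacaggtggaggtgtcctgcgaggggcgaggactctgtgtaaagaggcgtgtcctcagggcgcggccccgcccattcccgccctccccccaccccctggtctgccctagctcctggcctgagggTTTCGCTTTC
The ISRE core was found in 3.04% of 27025 promoters of this length and in 3 of the 40 members (Tnfrsf14, Tnfrsf17 and Tnfrsf1b). In Tnfrsf1b it lay 10 to 1 bases before the start. The kappa-B motif bound by NF-kB, searched as GGGANNTTCC on either strand, was found in 1.17% of all promoters and in 1 of the 40 members, Ltb. No member held both motifs, and a match of letters is not evidence of binding.

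Among the ligands, 8 of 17 were tested, 1 rose and 0 fell, or 12.5% called, compared to 17.9% of all genes. An unadjusted p under 0.05 by limma was found for 5 of the 8, and for 5329 of all 14106 genes tested. The median log2 fold change of the tested ligands was -0.34. Of the 8, 6 were lower in both WC1 libraries than in both Ctrl libraries without passing the test. In that direction this held, called or not, for 36.6% of all genes. Tnfsf10 encodes TRAIL, a ligand that can induce apoptosis (chr3:27317028-27342427, GENCODE M21, mm10). It was at 9.08 and 8.55 CPM in Ctrl, against 17.6 and 22.5 CPM in WC1. Both WC1 libraries were well above both Ctrl libraries. The mean rose 2.27-fold, from 8.82 ± 0.37 to 20.0 ± 3.4 CPM (SD, n = 2), and the log2 difference was 1.09 ± 0.14 (SE, adjusted p = 0.0175 by limma). Over 13 alternatives the adjusted p of Tnfsf10 lay between 6.90e-09 and 0.144, and it passed 0.05 in 11, failing without Ctrl 1 (0.144) and without Ctrl 2 (0.110), where its log2 fold change was 1.13 and 1.05.

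Tnf, the cytokine that gives the family its name, was at 6.96 and 7.50 CPM in Ctrl, against 5.57 and 4.73 CPM in WC1. The groups did not overlap, but the log2 difference of -0.42 ± 0.12 did not pass the test (adjusted p = 0.072 by limma). Over 13 alternatives the adjusted p lay between 0.0294 and 0.311, and it passed only without WC1 1, with 1 WC1 library and the spread of Ctrl alone. Tnf lies in a cluster of 10913 bases with Ltb and Lta (chr17:35194439-35205351). Ltb, which forms the membrane-bound lymphotoxin with Lta, was at 1.90 and 1.62 CPM in Ctrl, against 1.41 and 3.21 CPM in WC1. The WC1 libraries thus lay on both sides of the Ctrl libraries. Lta did not reach the test and was at most 0.381 CPM.

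Tnfsf12 encodes TWEAK, which acts on mesenchymal and endothelial cells, and it was the ligand with the highest level per transcript length (TPM). It was at 146 and 144 CPM in Ctrl, against 103 and 67.7 CPM in WC1. The WC1 libraries were both lower but far from each other, and the log2 difference of -0.79 ± 0.20 did not pass the test (adjusted p = 0.055 by limma). Tnfsf13, which encodes APRIL, a survival factor of plasma cells, was at 39.7 and 33.2 CPM in Ctrl, against 26.6 and 16.8 CPM in WC1. Its log2 fold change was -0.75 ± 0.23 (limma adjusted p = 0.080). Tnfsf12 passed 0.05 in 4 of 14 alternatives, over which its adjusted p lay between 4.58e-04 and 0.261. It passed in DESeq2 (0.00130) and in limma with the replicate number as a block (0.0286). The other passes, without WC1 1 and without WC1 2, set 1 WC1 library against the spread of Ctrl alone, with log2 fold changes of -1.08 and -0.49. Tnfsf13 passed in 3 of 13 alternatives, namely DESeq2 (0.00936), limma with the replicate block (0.0186) and the fit without WC1 1, with the same limit. Its log2 fold change was -1.07 without WC1 1 and -0.43 without WC1 2.

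Tnfsf12 and Tnfsf13 are neighbours on the minus strand of chromosome 11, and the read-through gene Tnfsfm13 spans both, so reads of shared exons may have been assigned to any of them. Tnfsfm13 itself was at 43.9 and 38.2 CPM in Ctrl, against 39.1 and 30.4 CPM in WC1, and its groups overlapped. The 3 genes summed gave 229 and 215 CPM in Ctrl, against 169 and 115 CPM in WC1, or -0.67 ± 0.19 on the log2 scale (adjusted p = 0.068 by limma). This sum was added once the values were known.

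The other tested ligands were low. Tnfsf13b (BAFF), a survival factor of B cells, was at 4.27 and 4.42 CPM in Ctrl, against 3.67 and 3.30 CPM in WC1. Tnfsf14 (LIGHT), a ligand of Ltbr and Tnfrsf14, was at 1.17 and 1.34 CPM in Ctrl, against 0.57 and 0.76 CPM in WC1. Tnfsf9 (4-1BB ligand), which costimulates T cells, was at 1.16 and 1.57 CPM in Ctrl, against 0.98 and 0.94 CPM in WC1. All 3 were lower in both WC1 libraries, with limma adjusted p values of 0.174, 0.085 and 0.247. The 9 ligands that were not tested were Cd40lg, Cd70, Fasl, Lta, Tnfsf4, Tnfsf8, Tnfsf11, Tnfsf15 and Tnfsf18. Their highest value in any library was 0.413 CPM, in Fasl, and Cd70 had 0 reads in all 4 libraries. Tnfsf4 (OX40 ligand) had 26 and 31 reads in Ctrl, against 10 and 5 in WC1, or 0.380, 0.356, 0.164 and 0.0794 CPM. Tnfsf11, which encodes RANKL, had 0 to 8 reads per library.

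**Figure D2:**
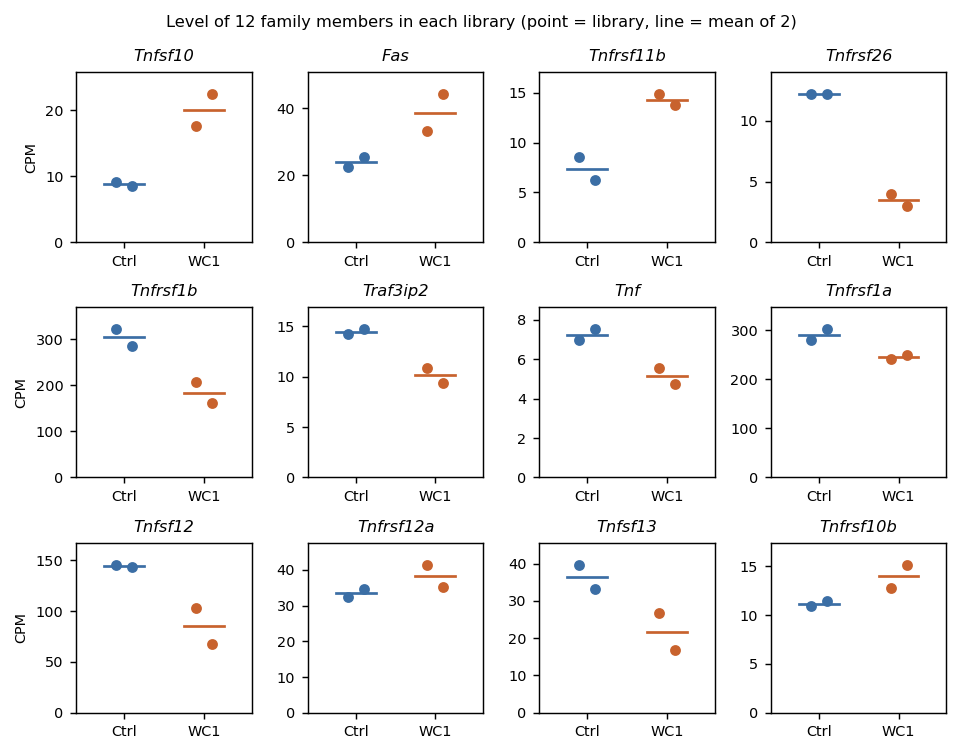
Level (CPM, axes from 0) of 12 members in each of the 2 Ctrl and 2 WC1 libraries, with a line at the mean of each group. The WC1 libraries lie above both Ctrl libraries for Tnfsf10, Fas, Tnfrsf11b, Tnfrsf12a and Tnfrsf10b, and below both for the other 7 genes, with Tnfsf12 widely spread in WC1 (103 and 67.7 CPM).

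Next, the receptors with a death domain were examined. All 5 were tested, 1 rose and 0 fell, or 20% called, compared to 17.9% of all genes. An unadjusted p under 0.05 by limma was found for 2 of the 5, and for 5329 of all 14106 genes tested. Fas, the receptor of FasL (chr19:34290666-34327772), was at 22.5 and 25.4 CPM in Ctrl, against 33.2 and 44.2 CPM in WC1. The groups did not overlap, though the WC1 libraries differed from each other more than the Ctrl libraries did. Fas rose 1.62-fold, from 23.9 ± 2.1 to 38.7 ± 7.8 CPM (SD, n = 2), and the log2 difference was 0.66 ± 0.16 (SE, adjusted p = 0.0475 by limma). Over 13 alternatives its adjusted p lay between 0.00142 and 0.265. The call was lost without a filter on low values (0.0793), with median-of-ratios scaling (0.0511), without Ctrl 1 (0.265) and without Ctrl 2 (0.164), with log2 fold changes of 0.57 and 0.74 in the last pair. Its ligand Fasl had 12 to 26 reads per library, 0.138 to 0.413 CPM, and its groups overlapped. The annotated gene Gm27818 overlaps Fas on the same strand.

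Tnfrsf10b, the signalling receptor of TRAIL in mice, was at 11.0 and 11.4 CPM in Ctrl, against 12.8 and 15.2 CPM in WC1. It was higher in both WC1 libraries, but its log2 fold change of 0.29 did not pass the test (limma adjusted p = 0.134) except without WC1 1 (limma adjusted p = 0.0369), with 1 WC1 library and the spread of Ctrl alone. Its log2 fold change was 0.41 in that fit and 0.18 without WC1 2 (limma adjusted p = 0.337), and its adjusted p reached 0.453 over 13 alternatives. Tnfrsf1a (TNFR1), the receptor through which soluble TNF mainly signals, was at 279 and 302 CPM in Ctrl, against 242 and 250 CPM in WC1. It was lower in both WC1 libraries, and the log2 difference of -0.24 ± 0.08 did not pass the test (adjusted p = 0.098 by limma). Tnfrsf21 (DR6) was at 62.6 and 59.3 CPM in Ctrl, against 59.6 and 56.2 CPM in WC1, and Tnfrsf25 (DR3) was at 4.84 and 6.65 CPM in Ctrl, against 5.08 and 8.21 CPM in WC1. The groups overlapped for both, and the 95% interval of the difference was -0.26 to 0.11 for Tnfrsf21 and -0.47 to 0.80 for Tnfrsf25 on the log2 scale.

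Of the 15 TRAF-binding receptors, 10 were tested, 0 rose and 1 fell, or 10% called, compared to 17.9% of all genes. An unadjusted p under 0.05 by limma was found for 2 of the 10, and for 5329 of all 14106 genes tested. Tnfrsf1b encodes TNFR2, which responds best to membrane-bound TNF (chr4:145213463-145246870). It was at 322 and 287 CPM in Ctrl, against 208 and 162 CPM in WC1, so that both WC1 libraries were far below both Ctrl libraries. The mean fell from 304 ± 25 to 185 ± 32 CPM (SD, n = 2) and was thus 1.65-fold lower, and the log2 difference was -0.73 ± 0.14 (SE, adjusted p = 0.0337 by limma). Over 13 alternatives the adjusted p of Tnfrsf1b lay between 4.87e-05 and 0.229, and it failed without a filter (0.0601), without Ctrl 1 (0.229) and without Ctrl 2 (0.146), where its log2 fold change was -0.64 and -0.81. The log2 fold changes of the 12 macrophage markers ranged from -1.25 (Lyz2) to 0.36 (Cd163), with a median of -0.68. Tnfrsf1b, the summed macrophage markers and the summed fibroblast and progenitor markers ranked the 4 libraries in the same order. The summed adipocyte, endothelial, and pericyte and smooth muscle markers ranked them in the reverse order. The part of these cell types in this result was not tested.

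The TWEAK receptor Tnfrsf12a (Fn14) was at 32.3 and 34.6 CPM in Ctrl, against 41.4 and 35.1 CPM in WC1. It was higher in both WC1 libraries while its ligand Tnfsf12 was lower, and neither passed the test (limma adjusted p = 0.264 and 0.055). Ltbr, the receptor of lymphotoxin and LIGHT, was at 104 and 108 CPM in Ctrl, against 104 and 110 CPM in WC1. These values overlapped, and the 95% interval of the log2 difference was -0.17 to 0.19. Tnfrsf11a (RANK) was at 61.6 and 57.8 CPM in Ctrl, against 55.0 and 39.3 CPM in WC1, lower in both WC1 libraries (limma adjusted p = 0.187). Cd40, the receptor that activates antigen-presenting cells, was at 7.28 and 5.78 CPM in Ctrl, against 5.29 and 5.18 CPM in WC1, and it did not pass either (limma adjusted p = 0.222).

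Receptors of lymphocytes were low in all libraries. Cd27, found on T cells and memory B cells, was at 0.54 and 0.57 CPM in Ctrl, against 0.92 and 1.38 CPM in WC1 (limma adjusted p = 0.105). Tnfrsf14 (HVEM), the other LIGHT receptor, was at 2.95 and 3.02 CPM in Ctrl, against 4.15 and 3.27 CPM in WC1 (limma adjusted p = 0.277). Both were higher in both WC1 libraries without passing the test. Tnfrsf13b (TACI), a receptor of BAFF and APRIL, was at 1.42 and 2.17 CPM in Ctrl, against 1.56 and 1.78 CPM in WC1, Tnfrsf4 (OX40) at 1.54 and 0.90 and at 1.13 and 1.29 CPM, and Tnfrsf18 (GITR) at 0.86 and 0.66 and at 0.84 and 0.91 CPM. The groups overlapped for all 3. The 5 receptors that were not tested were Tnfrsf8, Tnfrsf9, Tnfrsf13c, Tnfrsf17 and Tnfrsf19. Of these, Tnfrsf13c, the BAFF receptor of B cells, had 6 and 4 reads in Ctrl, against 20 and 111 in WC1. It was at 1.76 CPM in WC1 2 and at 0.328 CPM or less in the other 3 libraries. The B and plasma cell markers summed to 70.3 CPM in WC1 2 and to between 9.87 and 15.5 CPM in the other 3 libraries, so this value of Tnfrsf13c comes from the library in which the B cell markers are also high.

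The 4 decoy or other receptors included the tested member with the largest fold change. Tnfrsf26 is a mouse paralogue of decoy receptors of TRAIL (chr7:143607659-143628722). It was at 12.2 CPM in both Ctrl libraries and at 4.0 and 2.97 CPM in WC1. The mean fell from 12.21 ± 0.015 to 3.48 ± 0.73 CPM (SD, n = 2) and was thus 3.50-fold lower, and the log2 difference was -1.57 ± 0.14 (SE, adjusted p = 0.0123 by limma). It passed 0.05 in 11 of 14 alternatives, over which its adjusted p lay between 8.48e-16 and 0.126, failing without Ctrl 1 (0.126) and without Ctrl 2 (0.0952), where its log2 fold change was -1.57 each time. It lies in a cluster of 78214 bases with these decoys, Tnfrsf22 and Tnfrsf23 (chr7:143607659-143685872). The antisense gene E230032D23Rik overlaps all 3, and the strand setting of the counting is not stated in the labels or methods. Tnfrsf22 was at 4.78 and 5.08 CPM in Ctrl, against 6.72 and 5.21 CPM in WC1. Tnfrsf23 was at 20.4 and 19.0 CPM in Ctrl, against 19.4 and 15.6 CPM in WC1. The groups of Tnfrsf23 overlapped and those of Tnfrsf22 did not, and neither paralogue passed the test, with log2 fold changes of -0.17 and 0.22 (limma adjusted p = 0.376 and 0.312). These values moved with the WC1 libraries: without WC1 1 they were -0.32 and 0.067, and without WC1 2 -0.021 and 0.38. Reads of similar copies may be split between them, so the 3 genes were also summed, a step added once the values were known. How similar the copies are and whether reads were split was not tested. Tnfrsf23 was the largest part of the sum in each library. The sum was 37.4 and 36.3 CPM in Ctrl, against 30.1 and 23.7 CPM in WC1, a log2 fold change of -0.45 ± 0.13 that did not pass the test (limma adjusted p = 0.0692).

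Tnfrsf11b encodes osteoprotegerin, a secreted decoy receptor of RANKL that also binds TRAIL (chr15:54250619-54278484). It was at 8.52 and 6.19 CPM in Ctrl, against 14.9 and 13.7 CPM in WC1, and both WC1 libraries were above both Ctrl libraries. The mean rose 1.94-fold, from 7.36 ± 1.65 to 14.3 ± 0.8 CPM (SD, n = 2), and the log2 difference was 0.88 ± 0.16 (SE, adjusted p = 0.0292 by limma). Over 13 alternatives its adjusted p lay between 4.61e-05 and 0.128. It failed without a filter (0.0573), without Ctrl 1 (0.128) and without Ctrl 2 (0.127), where its log2 fold change was 1.09 and 0.68. Of the genes of the TRAIL system, the ligand Tnfsf10 and the soluble decoy Tnfrsf11b rose, whereas the signalling receptor Tnfrsf10b and the membrane decoys Tnfrsf22 and Tnfrsf23 did not pass the test.

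The 7 TRAFs were all tested, 0 rose and 0 fell, with 1 at an unadjusted p under 0.05 (Traf5). DESeq2 and edgeR also called 0 of them. With 17.9% of all genes called, a count of 0 of 7 is near the background and is not a result about the TRAFs. Their log2 fold changes lay between -0.25 and 0.18, a narrower range than that of the ligands (-0.79 to 1.09) or the receptors (-1.57 to 0.88). Traf1, an NF-kB-induced TRAF, was at 9.77 and 10.9 CPM in Ctrl, against 11.0 and 10.4 CPM in WC1. Traf2, the adaptor of TNFR1 and TNFR2 signalling, was at 22.3 and 15.1 CPM in Ctrl, against 15.7 and 22.6 CPM in WC1, so that its libraries differed within each group, and the 95% interval of the log2 difference was wide (-0.59 to 0.66). Traf3, which restrains non-canonical NF-kB signalling, was at 50.4 and 48.2 CPM in Ctrl, against 46.6 and 47.5 CPM in WC1. Traf4, the member with developmental and epithelial roles, was at 14.5 and 14.7 CPM in Ctrl, against 14.7 and 18.8 CPM in WC1, and it passed only without WC1 1 (limma adjusted p = 0.0481, with 1 WC1 library and the spread of Ctrl alone, and up to 0.969 over 13 alternatives). Traf5 acts beside Traf2 downstream of lymphocyte receptors such as CD27 and OX40, and it was at 24.7 and 22.9 CPM in Ctrl, against 20.98 and 18.8 CPM in WC1 (limma adjusted p = 0.131). Traf6, which also serves Toll-like and interleukin-1 receptors, was at 29.2 and 28.5 CPM in Ctrl, against 26.2 and 24.2 CPM in WC1 (limma adjusted p = 0.157). Traf7, which lacks the TRAF domain of the others, was at 72.6 and 73.1 CPM in Ctrl, against 73.7 and 75.1 CPM in WC1. Its 95% interval on the log2 scale was -0.13 to 0.19.

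Of the TRAF3-interacting proteins, Traf3ip2 fell. It encodes Act1, the adaptor of the interleukin-17 receptor (chr10:39612934-39655307), and it was at 14.3 and 14.7 CPM in Ctrl, against 10.9 and 9.37 CPM in WC1. The mean fell 1.43-fold, from 14.5 ± 0.3 to 10.1 ± 1.1 CPM (SD, n = 2), and the log2 difference was -0.48 ± 0.11 (SE, adjusted p = 0.0443 by limma). The call was lost in 5 of 13 alternatives, over which the adjusted p lay between 0.00766 and 0.247: without a filter (0.0760), in the TPM table (0.0755), without Ctrl 1 (0.247), without Ctrl 2 (0.226) and without WC1 2 (0.0678). Its log2 fold change lay between -0.58 and -0.34. Antisense genes (Gm16365 and E130307A14Rik) overlap it. Traf3ip1, a protein of primary cilia, was at 10.9 and 11.3 CPM in Ctrl, against 10.2 and 11.2 CPM in WC1. Traf3ip3, an adaptor found mainly in lymphocytes, was at 4.05 and 2.14 CPM in Ctrl, against 2.33 and 4.18 CPM in WC1. The groups overlapped for both.

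To compare levels between members, TPM, which corrects for transcript length, was used. Tnfrsf1a had the highest mean over the 4 libraries, 250 TPM, followed by Tnfsf12 (135 TPM), Ltbr (103 TPM), Tnfrsf1b (99.2 TPM), Tnfrsf12a (75.3 TPM), Traf7 (55.1 TPM), Fas (45.0 TPM), Tnfsf13 (34.5 TPM) and Tnfrsf21 (33.0 TPM). Receptors thus held most of the upper places, and the ligands there were Tnfsf12 and Tnfsf13. Tnf was at 8.04 and 8.76 TPM in Ctrl and at 7.02 and 6.16 TPM in WC1. Both TNF receptors were well above their ligand. Tnfrsf1a was at 248 and 270 TPM in Ctrl and at 234 and 250 TPM in WC1, and Tnfrsf1b was at 125 and 113 TPM in Ctrl and at 88.1 and 70.8 TPM in WC1. In TPM the groups of Tnfrsf1a overlapped and those of Tnfrsf1b did not. The order of near neighbours depended on the library. In WC1, Ltbr was at 103 and 113 TPM and Tnfrsf12a at 89.6 and 78.3 TPM, both above Tnfrsf1b in the same library, whereas in both Ctrl libraries Tnfrsf1b was above them. In the TPM table all genes together had a median log2 fold change of 0.10, which is 0.12 above that in CPM, and of the called genes 77.9% were higher, compared to 57.0% in CPM. Fold changes of members in TPM are therefore read against that shift. There 3 members were called higher and 2 lower, 5 of them shared with CPM.

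**Figure D3:**
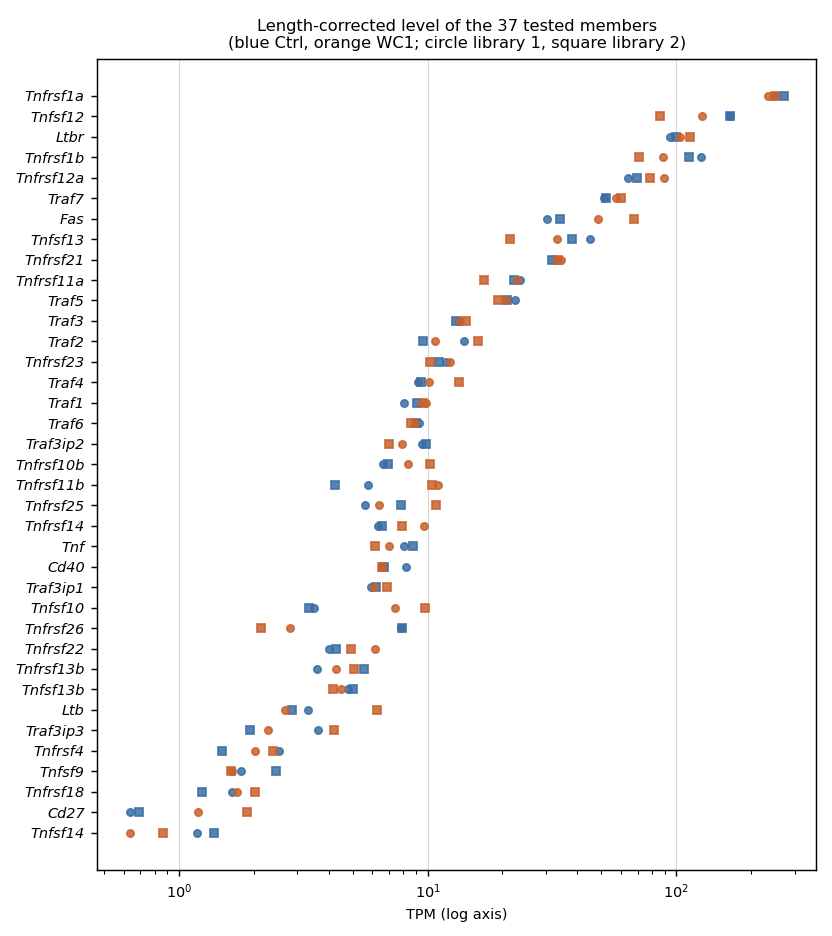
Length-corrected level (TPM, log axis) of the 37 tested members in each library, ordered by the mean over the 4 libraries. Tnfrsf1a is at the top with a mean of 250 TPM, the WC1 libraries lie to the right of Ctrl for Fas, Tnfrsf11b and Tnfsf10 and to the left for Tnfrsf1b and Tnfrsf26.

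Then, genes that carry the signal inside the cell were counted, from a list of 43 adaptors, kinases, caspases, ubiquitin enzymes and NF-kB subunits. All 43 were tested, 0 rose and 5 fell in WC1, and 18 had an unadjusted p under 0.05. Of the list, 11.6% was called, all of it lower, compared to 7.71% of all genes called lower, 10.2% called higher and 17.9% called in either direction, and the median log2 fold change was -0.03. The 5 genes were Ikbkg, Bid, Otulin, Rhbdf2 and Tbk1. Ikbkg (NEMO), the regulatory subunit of the IkB kinase, was at 74.3 and 65.8 CPM in Ctrl, against 50.6 and 49.5 CPM in WC1 (log2 fold change -0.47, limma adjusted p = 0.0279). Bid, which links death receptors to mitochondria, was at 26.1 and 25.03 CPM in Ctrl, against 18.0 and 18.2 CPM in WC1 (-0.47, limma adjusted p = 0.0249). Otulin, which removes linear ubiquitin chains, was at 45.0 and 43.6 CPM in Ctrl, against 35.0 and 30.9 CPM in WC1 (-0.42, limma adjusted p = 0.0376). In each of the 3 genes the groups did not overlap. All 3 calls were lost without Ctrl 1 (adjusted p 0.211, 0.215 and 0.250) and without Ctrl 2 (0.116, 0.149 and 0.184), as those of nearly all genes were, and those of Ikbkg and Otulin were lost in the TPM table (0.0668 and 0.0603) too. Otulin was also lost without a filter (0.0587). Rhbdf2 (iRhom2) takes TACE, the enzyme that sheds TNF, to the cell surface in myeloid cells, and Tbk1 is an IkB kinase-related kinase. Of the death receptor complex, Fadd and Casp8 were not called. Fadd was at 16.3 and 15.9 CPM in Ctrl, against 15.8 and 15.4 CPM in WC1, and Casp8 at 73.0 and 75.3 CPM in Ctrl, against 79.6 and 76.0 CPM in WC1. The related genes Tradd (log2 fold change -0.30), Ripk1 (-0.16), Ripk3 (-0.47) and Mlkl (-0.37) were lower in both WC1 libraries, and Cflar (0.064) was higher in both. None of them was called (limma adjusted p from 0.054 for Ripk3 to 0.510 for Cflar). The NF-kB subunits Rela, Nfkb1, Relb, Rel and Nfkb2 were not called either, and their groups overlapped.

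There were 3 higher genes of the list in DESeq2, in the TPM table and without WC1 1, and 1 without WC1 2. Higher calls over all genes were 2125, 2054, 2424 and 1419 in these fits, compared to 1443 in limma with all libraries. Of the list, 1 gene was lower in the TPM table and 2 without a filter, compared to 5 in limma with all libraries and the filter. Lower calls over all genes were 583 and 532 in these 2 fits, compared to 1088. Counts with 1 library left out are given below.

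Genes induced by NF-kB, the transcription factor on which many of these receptors converge, were counted from a list of 22, of which 19 were tested and 5 (Nfkbia, Tnfaip3, Birc3, Nfkb2 and Relb) are also in the signalling list. None rose and 6 fell in WC1, 31.6% of those tested, compared to 7.71% of all genes called lower and 17.9% called in either direction. This list, like the signalling list, was chosen with earlier results of these data known, so the share is not independent support. In the list, 12 genes had an unadjusted p under 0.05, and the median log2 fold change was -0.28. DESeq2 called 1 gene of the list higher, and so did limma without WC1 1 and without WC1 2. Tnfaip2, a TNF-induced gene of myeloid and endothelial cells, was at 317 and 303 CPM in Ctrl, against 147 and 104 CPM in WC1 (log2 fold change -1.32, limma adjusted p = 0.0177). Bcl2a1b, a survival factor of the BCL2 family, was at 62.0 and 60.0 CPM in Ctrl, against 40.6 and 27.0 CPM in WC1 (-0.86, limma adjusted p = 0.0434). Ccl5, a chemokine that attracts T cells and monocytes, was at 6.48 and 5.39 CPM in Ctrl, against 2.59 and 3.08 CPM in WC1 (-0.85, limma adjusted p = 0.0251). Ier3 (-0.78), Icam1 (-0.48) and Vcam1 (-0.38), the last 2 being adhesion molecules for leukocytes, fell as well. All calls of the list were lost without Ctrl 1 and without Ctrl 2, as those of nearly all genes were, where 0 genes were lower, and the adjusted p of Tnfaip2, Bcl2a1b and Ccl5 was then between 0.105 and 0.235. In the TPM table and without a filter, 4 genes were lower. Bcl2a1b was lost in both (0.0584 and 0.0751) and Ccl5 without a filter (0.0507). Bcl2a1b has close paralogues between which reads may be split. The members of the list did not all point down. Sod2, the mitochondrial superoxide dismutase, was at 132 and 145 CPM in Ctrl, against 176 and 239 CPM in WC1 (log2 fold change 0.56, limma adjusted p = 0.070), and Cxcl1 was at 3.49 and 4.79 CPM in Ctrl, against 7.19 and 5.29 CPM in WC1. The feedback inhibitors Nfkbia (-0.41) and Tnfaip3 (-0.25) did not pass the test. Macrophage markers were also lower in WC1, and their part in the values of this list was not tested.

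**Figure D4:**
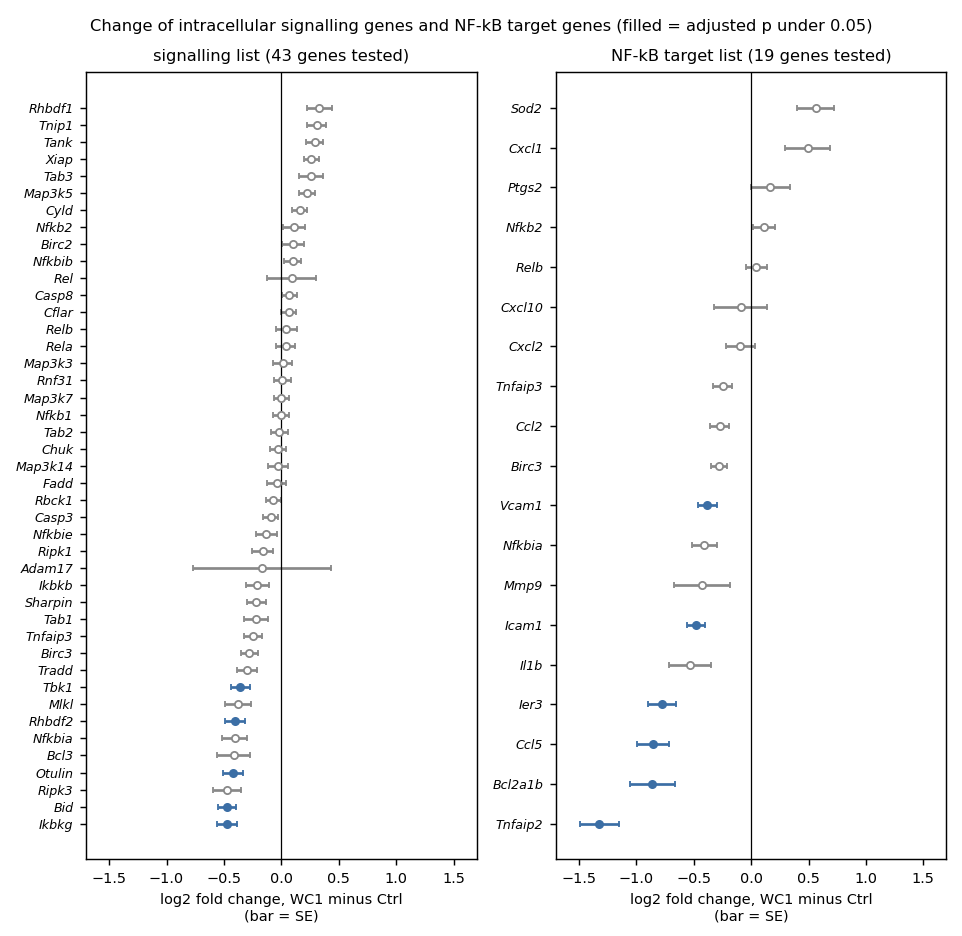
Log2 fold change (WC1 minus Ctrl) with bars of 1 standard error for the 43 signalling genes and the 19 tested NF-kB target genes. Filled points are called genes, all of which lie below 0 (5 in the signalling list and 6 in the NF-kB target list), and Adam17 has by far the widest error.

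The 5 family genes under other symbols were also looked up. Of the 4 tested, 0 were called by limma, compared to 17.9% of all genes. An unadjusted p under 0.05 was found for 2 of the 4, Eda and Eda2r, and for 5329 of all 14106 genes tested. The ligand Eda (ectodysplasin) was at 4.63 and 5.60 CPM in Ctrl, against 8.05 and 6.58 CPM in WC1 (log2 fold change 0.44, limma adjusted p = 0.098). Its receptor Eda2r was at 3.92 and 3.93 CPM in Ctrl, against 5.21 and 5.23 CPM in WC1 (log2 fold change 0.34, limma adjusted p = 0.084). Ligand and receptor were thus both higher in both WC1 libraries without passing the test. Relt was lower in both WC1 libraries and Ngfr overlapped, and Edar was not tested.

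**Figure D5:**
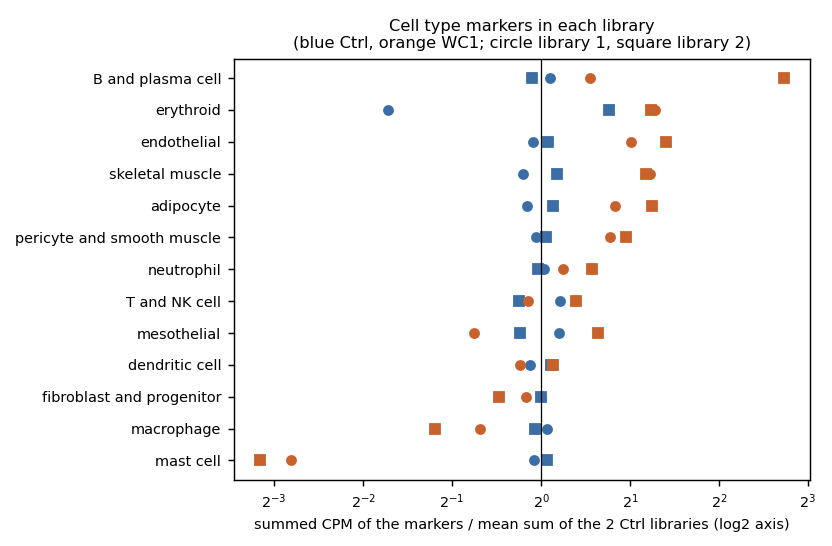
Summed CPM of the markers of 13 cell types in each library, divided by the mean of the 2 Ctrl libraries (log2 axis). Mast cell and macrophage markers lie left of 1 in both WC1 libraries, endothelial and adipocyte markers lie right of 1, and the B and plasma cell sum is high in WC1 2 alone (70.3 CPM).

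Since family members are expressed by several cell types, the markers of the other cell types are given here. T and NK cell markers summed to 16.6 and 12.1 CPM in Ctrl, against 12.9 and 18.9 CPM in WC1, with 1 of 10 tested called higher. Dendritic cell markers summed to 27.1 and 32.0 CPM in Ctrl, against 25.1 and 32.3 CPM in WC1. For both sums the groups overlapped, but of the 6 dendritic cell markers 2 were called lower (Ccr7 and Flt3) and 1 higher (Zbtb46). Neutrophil markers summed to 20.6 and 19.7 CPM in Ctrl, against 23.8 and 30.0 CPM in WC1. This sum followed S100a8, which was called higher, while Csf3r, Cxcr2, Retnlg and S100a9 were lower in both WC1 libraries without passing or reaching the test. Fibroblast and progenitor markers summed to 3939 and 3932 CPM in Ctrl, against 3491 and 2830 CPM in WC1, with 3 of 7 called lower. Pericyte and smooth muscle markers summed to 203 and 218 CPM in Ctrl, against 359 and 408 CPM in WC1, with 3 of 5 called higher. The part of these cells in the changes of Tnfsf10, Fas and Tnfrsf11b was not tested. Mesothelial markers summed to between 56.5 and 149 CPM with the extremes both in WC1. Erythroid markers summed to 26.9 and 150.3 CPM in Ctrl, against 215 and 208 CPM in WC1, with 0 of 3 tested called. Most of this sum came from the haemoglobin genes Hbb-bs and Hbb-bt. Hbb-bs had 1 and 12784 reads in Ctrl, against 11213 and 12692 in WC1. Hbb-bt had 1521 and 0 reads in Ctrl, against 1549 and 0 in WC1. The sum is therefore not read as a level of erythroid RNA. Skeletal muscle markers summed to 6.58 and 8.57 CPM in Ctrl, against 17.7 and 17.1 CPM in WC1, 2.30-fold higher, with 1 of 2 tested (Acta1) called higher.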

How the data were processed

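RNA-seq libraries were made from poly(A) RNA with a directional kit. The submitters' processing notes name fastp, HISAT2, StringTie and the build mm10 without versions, and the read counter and annotation are not stated there or in the methods. The authors deposited a signal proportional to reads, called CPM, with a library size rescaled per library (columns sum to between 976415 and 1047790). All values were whole multiples of 1 read to within 0.01 read. The authors deposited TPM as well, with the same sum in each library.

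Groups were taken from the sample titles. WC1 was compared with Ctrl on log2(CPM + 1) with limma 3.58.1 (R 4.3.3), using its moderated two-sided test with a trend on abundance. P-values were adjusted by Benjamini-Hochberg over the 14106 genes that held 0.5 CPM or more in 2 or more of 4 libraries, with a threshold of 0.05. Changes of low genes are understated on this scale. Errors are the SE of the model or the SD of 2 libraries. For a single gene, exact permutation cannot go below p = 0.333. edgeR 4.0.16 and DESeq2 1.42.0 were run on the recovered reads as alternatives.

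Named were all called members, every tested ligand with its receptors, Traf1 to Traf7, and the 3 largest called changes in each direction of the signalling and NF-kB target lists. Other members and Sod2, Cxcl1, Fadd, Casp8, Adam17, Acta1, Lyz2, Cd163, S100a8, Csf3r, Cxcr2, Retnlg, S100a9, Ccr7, Flt3, Zbtb46, Rhbdf2, Tbk1, Ier3, Icam1, Vcam1, Eda and Eda2r were named after their values were seen. So were Defb20, Rnase10, Hbb-bs, Hbb-bt, Tradd, Ripk1, Ripk3, Mlkl and Cflar. The members and lists were chosen with earlier results of these data known. Gene positions are from GENCODE M21 (mm10), and promoters are from RefSeq.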

Additional observations from a re-analysis of the deposited data

How the results depend on the processing

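The 6 called members kept their direction in all alternatives, but calls depended on the filter, and with 1 library left out the spread came from the other group alone. Without a filter, limma called 1 member higher and 1 lower, 2 signalling genes lower and 4 NF-kB targets lower, as all-gene calls fell to 788 higher and 532 lower of 18132. DESeq2 on recovered reads called 2125 genes higher and 1736 lower, among them 3 members higher and 5 lower, 3 signalling genes higher and 7 lower, and 1 NF-kB target higher and 7 lower. The TPM table, with 2054 genes higher, 583 lower and an all-gene median of 0.10, gave 3 signalling genes higher, 1 lower and a members' median of 0.077, and median-of-ratios scaling gave 1 signalling gene higher. With 1 library left out in turn, called members ranged from 0 to 7 higher and from 0 to 7 lower, signalling genes from 0 to 3 higher and from 0 to 10 lower, and NF-kB targets from 0 to 1 higher and from 0 to 9 lower. The cause was not tested.

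With the replicate number as a block (replicate block), limma called 3 members higher and 5 lower, 3 signalling genes higher and 8 lower, and 1 NF-kB target higher and 8 lower, with Tnfsf12 and Tnfsf13 gained (limma adjusted p = 0.0286 and 0.0186). Over all genes it called 1769 higher and 1497 lower, compared to 1443 and 1088 without it. Across 14106 genes the deviations of same-numbered libraries correlated with r = 0.19. Whether equal numbers mark a pair is not stated in the labels and cannot be settled from 2 pairs.

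Over 28 named members and 365 values, 324 kept their direction and side of the threshold, 20 lost the call, 11 gained it and 10 changed sign, none of a called member. Of these, Tnfrsf13b (0.046) and Traf3 (0.069) lay above 0 in the TPM table but below its all-gene median of 0.10. With 1 library left out, Ltb ranged from -0.19 to 0.61, Ltbr from -0.033 to 0.055, Tnfrsf13b from -0.25 to 0.14, Traf1 from -0.026 to 0.12 and Traf2 from -0.23 to 0.30 on the log2 scale.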

Other observations

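Adam17, which encodes the protease that sheds TNF and several of its receptors (TACE), differed within the groups more than between them. It was at 141 and 53.9 CPM in Ctrl, against 122 and 49.2 CPM in WC1, high in library 1 and low in library 2 of each group, and its log2 fold change was -0.17 ± 0.60 (SE, limma adjusted p = 0.863). Traf2 (22.3 and 15.1 CPM in Ctrl, 15.7 and 22.6 CPM in WC1) and Traf3ip3 (4.05 and 2.14 CPM, 2.33 and 4.18 CPM) also differed within both groups, but in opposite directions. These genes were picked after their values were seen.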
